A study of Mus musculus with 10 samples.

Results

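Mineralisation of the extracellular matrix is held back by a small set of gene products, and 6 of them are described here: Enpp1, Ank, Abcc6 and Nt5e of the ATP, pyrophosphate and adenosine route, and the matrix proteins Mgp and Spp1. The members were chosen by symbol, and each was set against Alpl. All 6 were listed among the 31053 genes of the droplet matrices and among the 55453 genes of the plate tables. The cells came from the supraspinatus tendon enthesis of the mouse shoulder, the junction of tendon and bone. Whole entheses of wild-type C57BL/6 mice were taken at postnatal days 11, 18 and 56 (P11, P18 and P56), pooled within an age, freed of red blood cells and sorted as single live cells without the leukocyte marker Cd45 before droplet sequencing. Gli1-lineage cells came from Gli1CreERT;Ai14 mice given tamoxifen at P5 and P7, and were sorted into 96-well plates at 7 ages: P7, P11 and P14, P18 and P21, then P28 and P42. The drug switches on a red reporter in cells that express Gli1, and their descendants keep it. The labels do not state plainly whether cells with or without red fluorescence were collected, and their account of the plate sort does not name P14. Each age was 1 library in each assay and held pooled entheses, so no spread between animals was measured.

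Inorganic pyrophosphate blocks the growth of hydroxyapatite crystals, and its level outside the cell depends on supply and on breakdown. Enpp1 cleaves extracellular ATP into AMP and pyrophosphate, Ank is a membrane protein needed for the release of pyrophosphate and ATP, and Abcc6 is a transporter needed for ATP release, chiefly from liver. Nt5e (CD73) turns the AMP into adenosine, and Alpl, tissue-nonspecific alkaline phosphatase, hydrolyses pyrophosphate to phosphate. Mgp is a gamma-carboxylated protein that keeps cartilage and vessel walls free of mineral, and Spp1 (osteopontin) is an acidic phosphoprotein that binds crystals and is made in quantity by bone-forming cells.

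After filters, 2882, 5163 and 4920 droplet barcodes were kept at P11, P18 and P56, from libraries of 44104990, 53725468 and 40082499 unique molecular identifiers (UMIs). Cells were clustered without the members and without Alpl, and clusters were named from marker lists, so the classes are rebuilt here and are not the authors' annotation. Mesenchymal-like cells made up 78.3% of kept cells at P11 and 28.2% at P18, where B cell-like and granulocyte-like cells were many despite the Cd45 gate. Tendon fibroblast-like cells numbered 847, 353 and 1874 at the 3 ages, chondrocyte-like cells 261, 610 and 0, and mineralising-like cells 104, 296 and 2. The name of the last class rests on few markers: its leading genes were Dkk1, Ibsp, Pappa2, Alpl, Sfrp5 and Spp1, its 12 mineralising markers summed to 6798 and 14500 CPM (counts scaled to a common total) at P11 and P18, and its chondrocyte markers summed to 87281 and 64295 CPM. It is therefore a class of Ibsp-high cells that also carried cartilage transcripts, and the members are described in it under that reading. Pairs of droplet libraries shared 4, 6 and 9 barcodes.

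Summed by class, the pyrophosphate suppliers Enpp1 and Ank were present in every mesenchymal class. They differed by less than 2-fold between the tendon, cartilage and Ibsp-high classes of the same age. Single clusters differed by more, as described below. Ank passed 2-fold between chondrocyte-like clusters, and both genes passed between tendon cluster 6 and mineralising-like cells at P11. In tendon fibroblast-like cells the P11 level of Enpp1 was 79.8 CPM of summed UMIs, with a 95% Poisson interval from 75 to 84.8. The P18 level was 116 CPM (105 to 128), and the P56 level 57.5 (53.2 to 62.1). In chondrocyte-like cells the Enpp1 level was 69.1 CPM at P11 and 74.7 at P18, and in mineralising-like cells 53.6 and 69.2. The tendon fibroblast-like sum at P18 was the highest of 26 class-by-library sums and its interval did not overlap the next; the 8 sums that followed overlapped their neighbours in the order. Connective-tissue fibroblast-like cells held less Enpp1, at 32.0, 21.9 and 31.0 CPM. Granulocyte-like cells at P18 had 0 Enpp1 UMIs in 870 cells. All intervals on levels, shares and ratios cover counting error only, and no test between single libraries was possible.

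Ank followed a similar order. Its level in tendon fibroblast-like cells was 150 CPM at P11, 223 at P18 and 112 at P56, in chondrocyte-like cells 132 and 215 at P11 and P18, and in mineralising-like cells 93.6 and 138. The P18 levels of tendon fibroblast-like and chondrocyte-like cells overlapped in their intervals. Connective-tissue fibroblast-like cells ranged from 60.8 to 72.3 CPM of Ank. Monocyte-macrophage-like cells also held Ank, at 55.7 CPM at P11 and 26.7 at P18.

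Nt5e, the adenosine-forming step, was lower in tendon than in cartilage and Ibsp-high cells. It measured 72.2, 80.8 and 50.9 CPM in tendon fibroblast-like cells from P11 to P56, 135 and 144 CPM in chondrocyte-like cells and 123 and 150 CPM in mineralising-like cells. Chondrocyte-like and mineralising-like cells overlapped at each age. Connective-tissue fibroblast-like cells had 19.2, 15.9 and 6.73 CPM, and endothelial-like cells at P56 had 73.2.

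Abcc6 could not be described beyond its rarity. Mesenchymal-like cells held 8, 4 and 1 Abcc6 UMIs at P11, P18 and P56, no class in any library held more than 3, and all 7 plates had 0 counts. In tendon fibroblast-like cells at P18, 0 UMIs allow a level of up to 0.882 CPM, the level that 3 UMIs would give.

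Alpl, the gene on the opposing side, spanned the widest range of the pyrophosphate genes. The Alpl level of tendon fibroblast-like cells was 2.08 CPM (1.37 to 3.03) in the P11 library, 19.4 (15 to 24.7) in the P18 library and 12.4 (10.4 to 14.6) in the P56 library. Chondrocyte-like cells held 80.8 and 138 CPM at P11 and P18, and mineralising-like cells 603 (565 to 643) and 858 (825 to 892). None of these class intervals overlapped at the same age. Alpl was above tendon fibroblast-like cells 289-fold at P11 and 44.2-fold at P18 in mineralising-like cells. It was also read outside the skeleton-forming classes, at 55.6 CPM in endothelial-like cells at P56 and at 47.3 and 17.6 CPM in B cell-like cells at P11 and P18.

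The matrix inhibitors were far more abundant and divided by class. Mgp was at 1664, 3204 and 11576 CPM in tendon fibroblast-like cells from P11 to P56, at 7600 and 12419 in chondrocyte-like cells and at 1932 and 4732 in mineralising-like cells. Chondrocyte-like cells thus held the most Mgp at P11 and P18. Spp1 measured 5797 and 11015 CPM in mineralising-like cells, 821 and 1423 in chondrocyte-like cells and 90.1, 2284 and 549 in tendon fibroblast-like cells. Ibsp, bone sialoprotein, which helped to name the mineralising-like cluster, was at 5853 and 13307 CPM there.

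**Figure D1:**
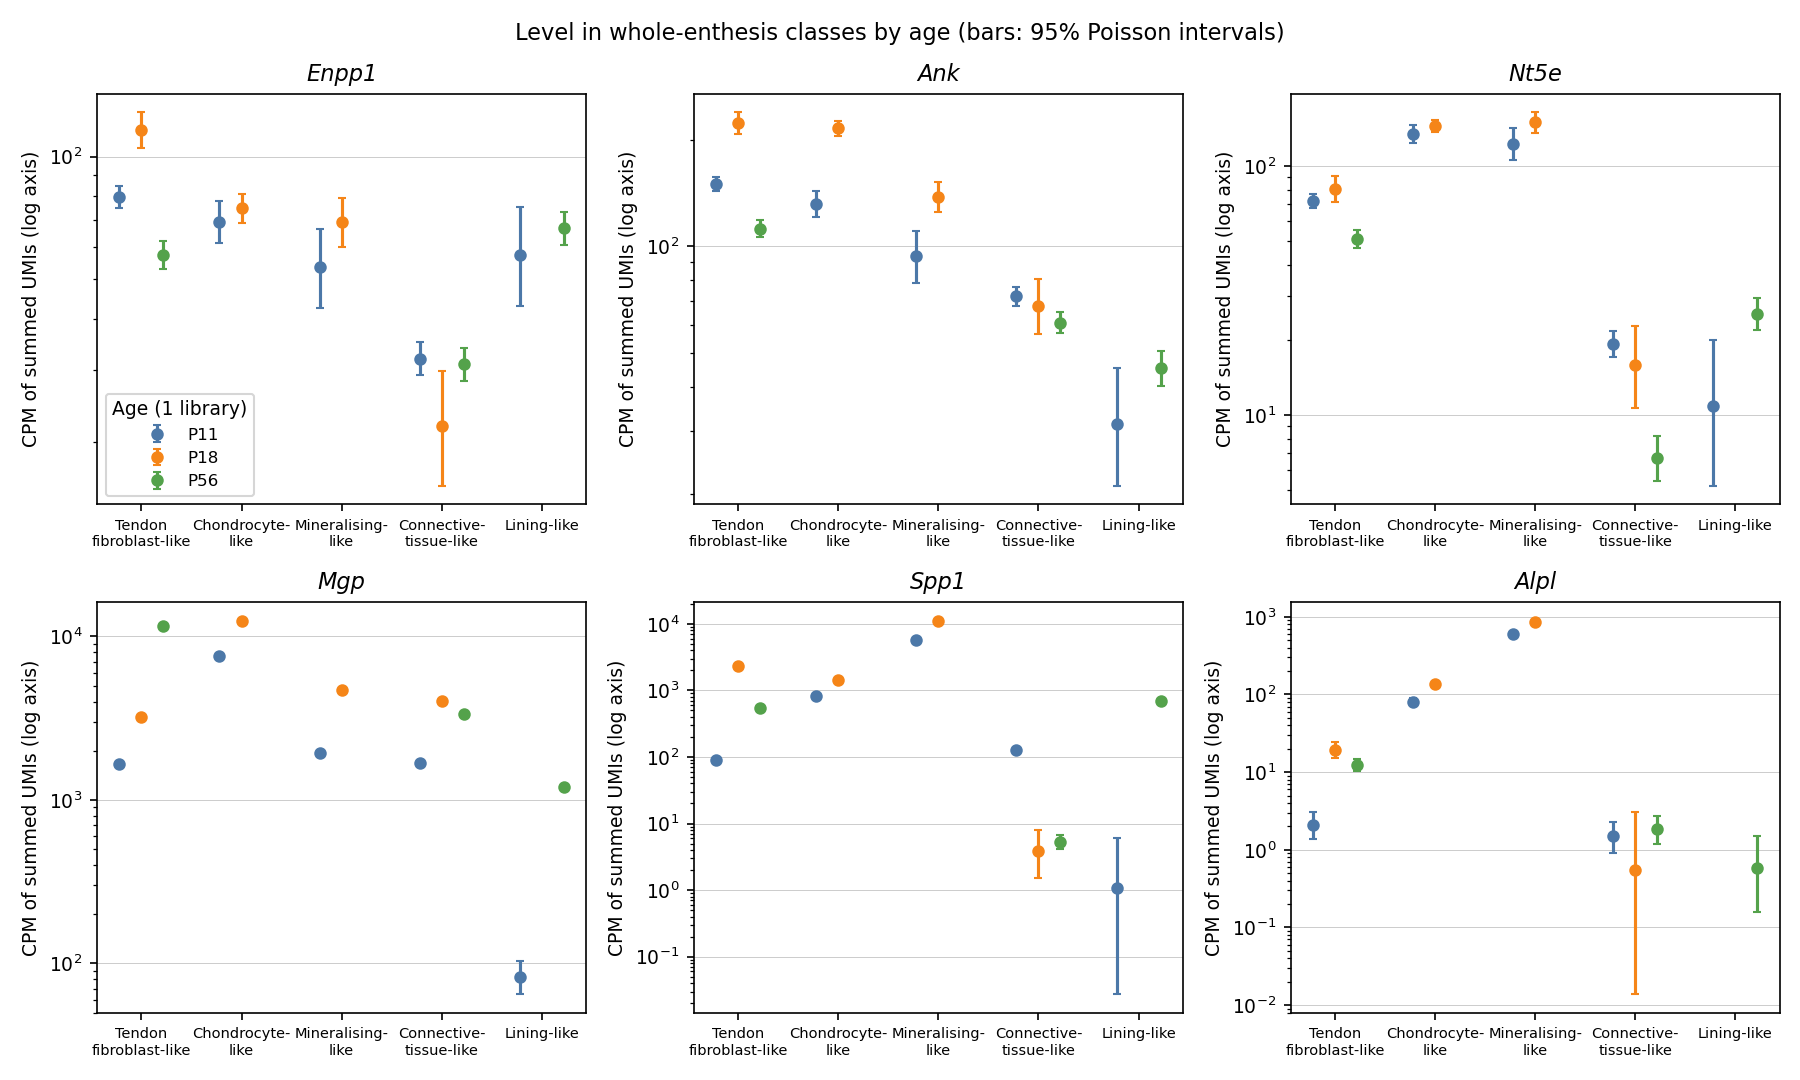
Levels of Enpp1, Ank, Nt5e, Mgp, Spp1 and Alpl (log axis, CPM of summed UMIs) in 5 whole-enthesis classes, 1 point per library and age, with 95% Poisson intervals; a class with 0 UMIs has no point, as Alpl in lining-like cells at P11. Alpl and Spp1 are highest in mineralising-like cells, Mgp in chondrocyte-like cells at P11 and P18, and Enpp1 and Ank stay within a narrower range over tendon, chondrocyte-like and mineralising-like cells.

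Within a library, a member was counted when its summed level differed at least 2-fold between 2 classes and the pair held at least 50 UMIs of it. From tendon fibroblast-like to mineralising-like cells, 1 of 5 members passed at P11 (23.1% of all genes did) and 1 of 5 at P18 (20.8%), and in both cases it was Spp1, by 6.01 and 2.27 on the log2 scale. Enpp1 was lower by that comparison, at -0.58 and -0.75, as was Ank, at -0.68 and -0.69, while Nt5e was higher, at 0.76 and 0.89. From tendon fibroblast-like to chondrocyte-like cells, 2 of 5 passed at P11 (30.2% of all genes) and 1 of 5 at P18 (31.5%): Mgp at both ages, at 2.19 and 1.95, and Spp1 at P11, at 3.19. From chondrocyte-like to mineralising-like cells, 2 of 5 passed at P11 (12.5% of all genes) and 2 of 5 at P18 (12%), with Mgp lower by 1.98 and 1.39 and Spp1 higher by 2.82 and 2.95. Together 9 of 30 such differences passed, where 12% to 31.5% of all genes did by comparison, and none of the 9 was of Enpp1, Ank or Nt5e. With the tendon class taken as cluster 6 alone, Enpp1 and Ank did pass at P11, at -1.22 and -1.16 in mineralising-like cells. Alpl passed in all 6 comparisons. The clustering used other genes of the same cells, so these are descriptions of the classes.

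Set against Alpl within the same sum of cells, each member's ratio does not depend on the total. In tendon fibroblast-like cells the P11 library had 38.3 Enpp1 UMIs per Alpl UMI, with an exact binomial 95% interval from 26.2 to 58.5. The P18 library had 6.00 (4.61 to 7.91) and the P56 library 4.65 (3.87 to 5.63). Few cells set these 2 later ratios: 5 of 353 cells at P18 and 3 of 1874 at P56 held at least 50% of the Alpl UMIs. At P56 the 28 cells of cluster 6 held 108 of the 139 Alpl UMIs. Without that cluster the P56 tendon class held 616 Enpp1 and 31 Alpl UMIs. The tendon ratios of the other members share these Alpl UMIs. In chondrocyte-like cells the Enpp1 ratio was 0.855 at P11 (0.726 to 1.01) and 0.541 at P18 (0.489 to 0.600). In mineralising-like cells it was 0.0889 (0.0701 to 0.111) and 0.0807 (0.0696 to 0.0931), that is 11.3 and 12.4 Alpl UMIs per Enpp1 UMI. The order tendon, chondrocyte-like, mineralising-like held at both ages with no overlap of intervals.

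The same order was seen for Ank and Nt5e. The Ank ratio was 72.0, 11.5 and 9.06 in tendon fibroblast-like cells from P11 to P56, 1.63 and 1.56 in chondrocyte-like cells and 0.155 and 0.161 in mineralising-like cells. Nt5e stood at 34.7, 4.17 and 4.12 UMIs per Alpl UMI in tendon fibroblast-like cells, 1.66 and 1.05 in chondrocyte-like cells and 0.203 and 0.174 in mineralising-like cells. For these 3 genes the ratio differs mainly through Alpl, whose own level differs most between the classes. Mgp stayed above Alpl in all 3 classes, from 165 to 937 UMIs per Alpl UMI in tendon fibroblast-like, 94.0 and 90.0 in chondrocyte-like, and 3.21 and 5.52 in mineralising-like cells. The Spp1 ratio was closest between classes, at 10.2 and 10.3 in chondrocyte-like and 9.62 and 12.8 in mineralising-like cells, against 43.3, 118 and 44.4 in tendon fibroblast-like cells.

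**Figure D2:**
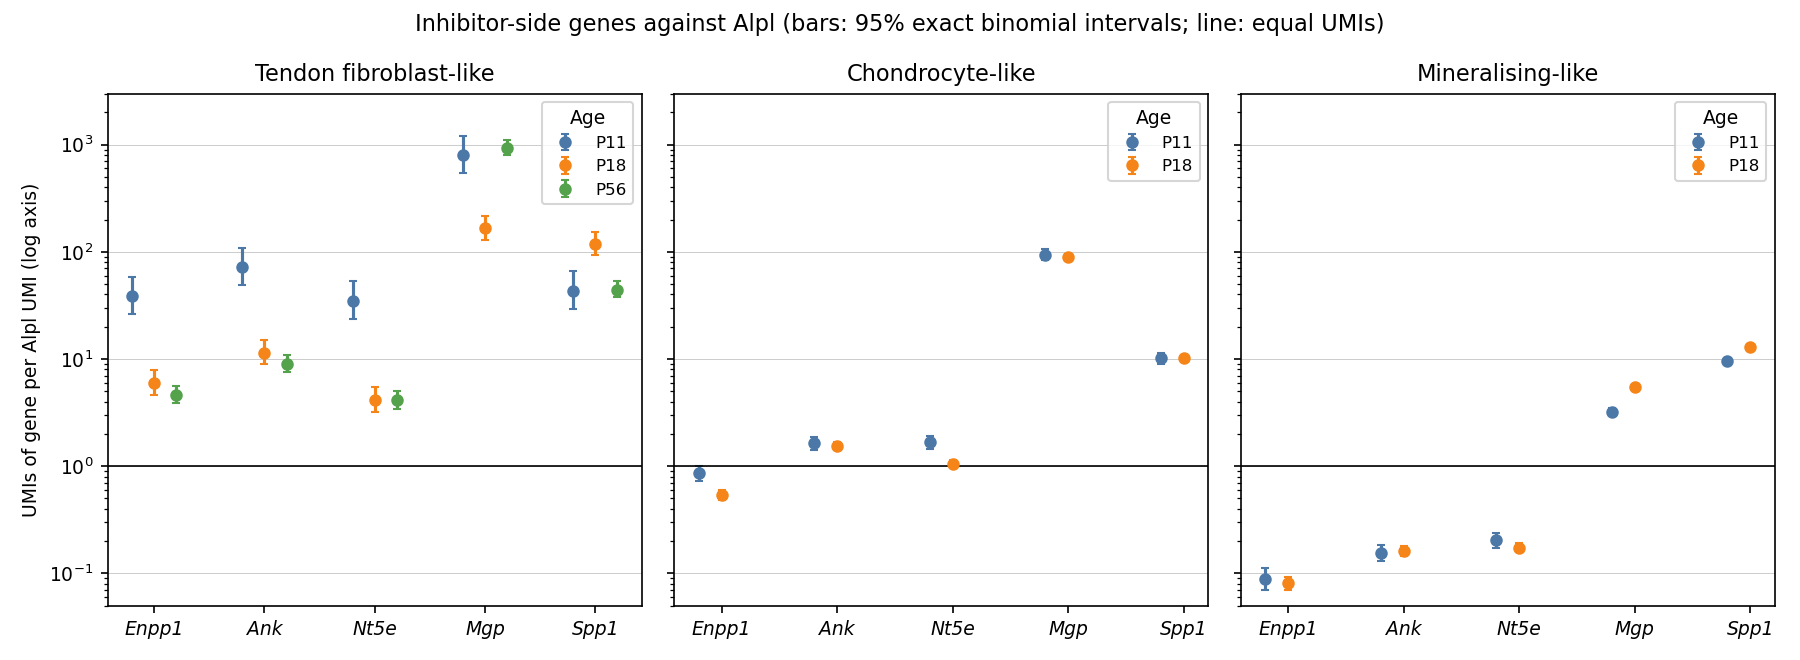
UMIs of each gene per Alpl UMI (log axis) in tendon fibroblast-like, chondrocyte-like and mineralising-like cells, 1 point per library, with 95% exact binomial intervals and a line at equal UMIs. Enpp1, Ank and Nt5e lie above the line in tendon fibroblast-like cells and below it in mineralising-like cells, while Mgp and Spp1 lie above it in every class.

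To show the sequence next to these genes, the 250 bases before the start were read for Spp1 and Alpl, which were both highest in mineralising-like cells, and for Enpp1 and Ank, whose levels had similar profiles over the classes. RefSeq windows (GRCm38.p6) were matched for 4 of the 6 members and for Alpl, and none for Mgp and Abcc6. Capitals mark matches, on either strand, to the RUNX motif ACCACA or TGTGGT, the GC box GGGCGG or CCGCCC and the TATA box TATAAA or TTTATA, and each is written 5' to 3' along the gene.
Spp1, chr5:104434861-104435110, plus strand: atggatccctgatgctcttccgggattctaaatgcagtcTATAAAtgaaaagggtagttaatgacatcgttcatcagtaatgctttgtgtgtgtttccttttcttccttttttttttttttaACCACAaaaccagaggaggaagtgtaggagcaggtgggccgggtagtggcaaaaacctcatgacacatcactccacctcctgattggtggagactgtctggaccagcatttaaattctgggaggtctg
Alpl, chr4:137796385-137796634, minus strand: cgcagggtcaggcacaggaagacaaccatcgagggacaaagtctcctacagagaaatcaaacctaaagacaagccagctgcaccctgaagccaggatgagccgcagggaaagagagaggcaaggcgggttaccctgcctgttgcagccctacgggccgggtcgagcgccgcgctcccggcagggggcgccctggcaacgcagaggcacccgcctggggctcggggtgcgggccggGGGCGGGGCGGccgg
Enpp1, chr10:24712160-24712409, minus strand: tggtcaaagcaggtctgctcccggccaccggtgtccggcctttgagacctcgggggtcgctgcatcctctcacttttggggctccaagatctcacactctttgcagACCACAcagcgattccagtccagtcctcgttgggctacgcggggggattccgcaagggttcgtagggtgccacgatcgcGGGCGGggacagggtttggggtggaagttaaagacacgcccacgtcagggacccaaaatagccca
Ank, chr15:27466427-27466676, plus strand: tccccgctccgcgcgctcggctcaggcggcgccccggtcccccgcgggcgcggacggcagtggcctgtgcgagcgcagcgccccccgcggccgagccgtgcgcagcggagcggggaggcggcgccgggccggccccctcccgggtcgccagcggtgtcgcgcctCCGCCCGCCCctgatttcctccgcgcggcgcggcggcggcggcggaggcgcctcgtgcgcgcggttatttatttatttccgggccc
Spp1 and Enpp1 each held 1 RUNX match, 128 and 144 bases before the start, and 14.0% of all 32851 promoter windows held one. Spp1 also held a TATA box 211 bases before the start, as did 12.4% of windows, and no GC box. Alpl held 2 GC boxes, 15 and 10 bases before the start, Ank held 2 that overlap, 86 and 82 bases before it, Enpp1 held 1, and the Nt5e window held 4; 32.7% of windows held at least 1. The SOX motif AACAAT or ATTGTT was in none of the 5 windows and in 9.42% of all. GC content was 43.6% in Spp1, 61.2% in Enpp1, 68.4% in Alpl, 72.0% in Nt5e and 81.2% in Ank, against a median of 52.4%. A match describes the letters only.

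The genes themselves lie on 7 chromosomes in the mm10 build: Enpp1 at chr10:24637914-24712159, Ank at chr15:27466677-27594909, Nt5e at chr9:88327609-88372089, Abcc6 at chr7:45974110-46030491, Mgp at chr6:136872435-136875823, Spp1 at chr5:104435111-104441053 and Alpl at chr4:137741731-137796384.

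Between ages, Spp1 and Mgp made up 5 of the 6 member differences past 2-fold in tendon fibroblast-like cells. From P11 to P18, 1 of 5 members passed 2-fold (11.2% of all genes did): Spp1, at 4.66 on the log2 scale. Mgp came close, at 0.95, Enpp1 and Ank were at 0.54 and 0.57, Nt5e at 0.16 and Alpl at 3.22. From P18 to P56, 3 of 5 passed (15.1% of all genes): Enpp1 at -1.02 (interval -1.20 to -0.83; 2-fold is not reached under TMM scaling, without cluster 10, with stricter cell filters and in other clusterings), Spp1 at -2.06 and Mgp at 1.85, with Ank just short at -0.99. From P11 to P56, 2 of 5 passed (22.6%): Mgp at 2.80 and Spp1 at 2.61, while Enpp1 and Ank were at -0.47 and -0.42 and Alpl at 2.57. Different clusters held most of the class at each age: cluster 5 held 631 of the P11 cells, cluster 6 held 337 of the P18 cells, and clusters 0 and 10 held 1411 and 435 of the P56 cells.

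Those clusters differed in the members as much as the ages did. Cluster 6, led by Tnn, Barx2 and Gdf5, was the only tendon cluster with at least 20 cells at each age. Its Enpp1 levels were 125, 116 and 132 CPM and its Ank levels 209, 229 and 226 CPM at P11, P18 and P56, so at P11 and P18, where it held 180 and 337 cells, neither gene showed the higher P18 level of the whole class. Cluster 5 at P11 held 68.9 CPM of Enpp1 and 137 of Ank, and cluster 0 at P56 held 56.4 and 89.3. From P18 to P56 within cluster 6, 4 members had the opposite sign to the whole class: Enpp1 at 0.20 on the log2 scale, with an interval that spans 0 (-0.38 to 0.73), Nt5e at 0.90 (0.34 to 1.41), Mgp at -0.73 and Spp1 at 3.01. Its P56 sum is of 28 cells.

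The high Mgp level of the tendon class at P56 lay largely in cluster 10. That cluster, led by Col22a1 and Ptx4 and found at P56, held 35140 CPM of Mgp, against 4553 in cluster 0 and 1895 in cluster 6 at the same age. Without cluster 10 the Mgp difference from P11 to P56 was 1.43 in place of 2.80, and from P18 to P56 it was 0.49 in place of 1.85. The same cluster had 175 CPM of Ank and 1 UMI of Alpl against 142 of Enpp1. Without it Ank passed 2-fold from P18 to P56, at -1.26, and Enpp1 fell just short, at -0.996. The P11 library had its own tendon cluster with Col22a1 among its leading genes, cluster 36. Its 36 cells at P11 held 3267 of the 21579 Mgp UMIs of the class, and they stayed in the P11 sum when cluster 10 was left out. Mgp above the rest of the tendon class in such cells was thus not particular to P56. The CPM of cluster 36 is not given here, so its Mgp is not to be read as matching the 35140 CPM of cluster 10.

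Cluster 6 at P56 was the exception in the opposite sense. Its 28 cells held 4499 of the 6169 Spp1 UMIs and 108 of the 139 Alpl UMIs of the whole tendon class at that age. They had 19206 CPM of Spp1 and 461 CPM of Alpl, and 0.287 Enpp1 UMIs per Alpl UMI (0.186 to 0.431), against 23.4 in cluster 6 at P11 and 5.71 at P18. A single cell held 52 of the 108 Alpl UMIs, 2 cells held at least 50% of Alpl and of Ank, and 10 cells held 98.2% of Spp1. Its mineralising markers summed to 545, 2499 and 15598 CPM at P11, P18 and P56, above its tendon markers at P56 (8495 CPM), and whether they account for the ratio was not tested. Cluster 0 at P56 held 15.8 Enpp1 UMIs per Alpl UMI.

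**Figure D3:**
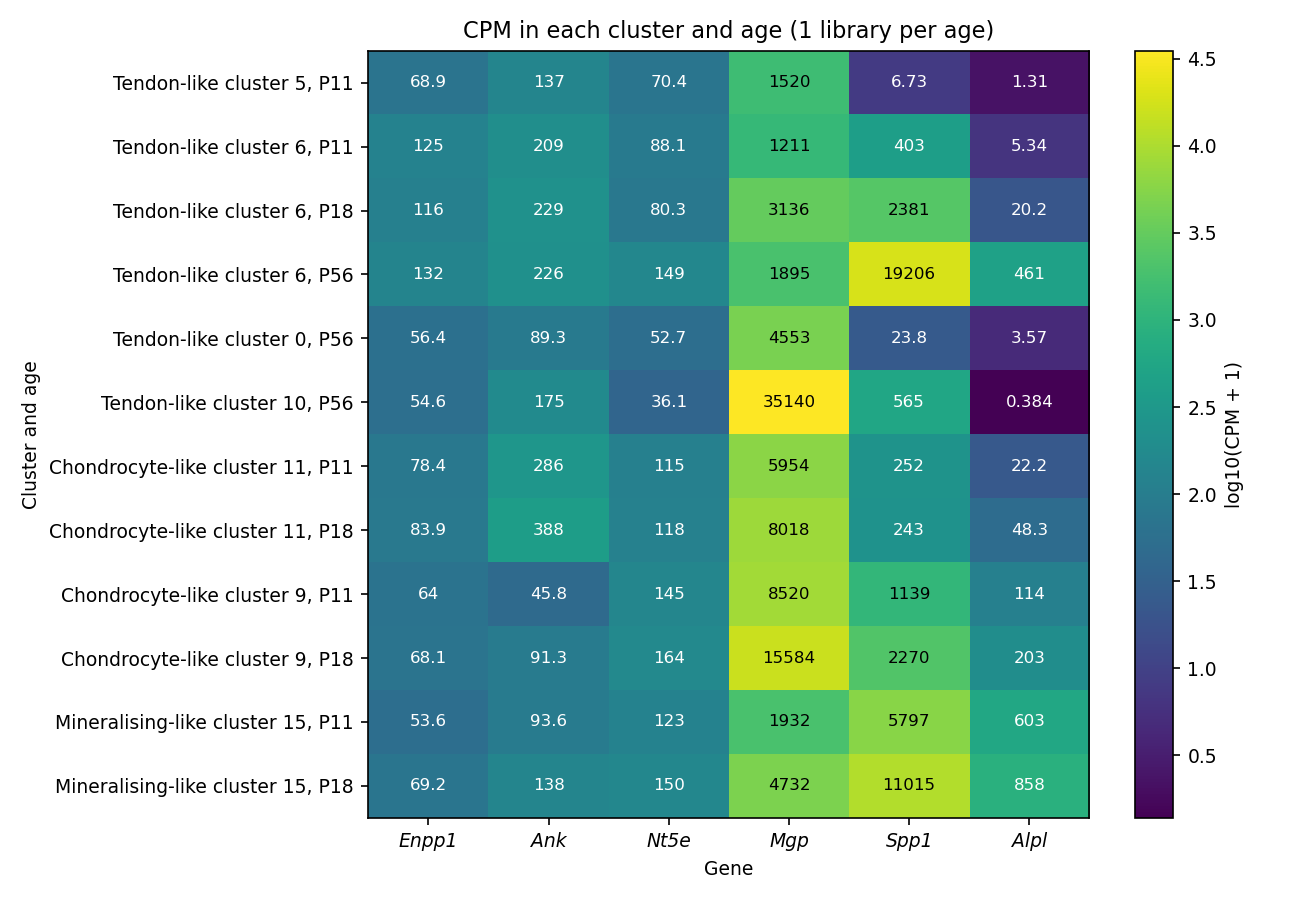
Heatmap of the members and Alpl (columns) in 12 cluster-by-age sums of tendon-like, chondrocyte-like and mineralising-like cells (rows), with the colour giving log10(CPM + 1) and the number in each cell the CPM of summed UMIs. Mgp is highest in cluster 10 at P56 (35140 CPM), and Spp1 and Alpl in cluster 6 are higher at P56 (19206 and 461 CPM) than at P11 (403 and 5.34 CPM).

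Chondrocyte-like cells split into 2 clusters that differed in Ank, Spp1 and Alpl. Cluster 11, led by Msmp and Smoc1, held 286 and 388 CPM of Ank at P11 and P18, the highest Ank among the chondrocyte-like, tendon and mineralising-like clusters printed here, and 3.53 and 1.74 Enpp1 UMIs per Alpl UMI. Cluster 9, led by the cartilage matrix gene Matn1, held 45.8 and 91.3 CPM of Ank, 114 and 203 CPM of Alpl, and 0.563 and 0.336 Enpp1 UMIs per Alpl UMI. Spp1 was at 1139 and 2270 CPM in cluster 9 and at 252 and 243 in cluster 11, and Mgp at 8520 and 15584 against 5954 and 8018. Enpp1 and Nt5e differed less, at 64.0 and 68.1 against 78.4 and 83.9 CPM for Enpp1. Over the class, 0 of 5 members passed 2-fold from P11 to P18 (5.36% of all genes did), and the log2 differences were 0.11 for Enpp1, 0.71 for Ank and Mgp, 0.79 for Spp1, 0.10 for Nt5e and 0.77 for Alpl.

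In mineralising-like cells 1 of 5 members passed from P11 to P18 (4.37% of all genes): Mgp, at 1.29. Spp1 was at 0.93, Ank at 0.56, Enpp1 at 0.37 and Nt5e at 0.29, with Alpl at 0.51. The Enpp1 interval reached 0, from -0.01, and the ratios of Enpp1, Ank and Nt5e to Alpl overlapped between the ages.

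Outside these classes the members were not uniformly lower: Mgp in connective-tissue fibroblast-like cells, at 1687 CPM at P11 and 4043 at P18, was at or above the tendon level. At P56 it was below that level, at 3346.5 against 11576 CPM. In connective-tissue fibroblast-like cells 2 of 5 members passed from P11 to P18 (8.33% of all genes), Mgp at 1.26 and Spp1 at -5.03, 1 of 5 from P18 to P56 (13.2%), Nt5e at -1.24, and 2 of 5 from P11 to P56 (17.9%), Spp1 at -4.56 and Nt5e at -1.51. A single cell held 1446 of the 1775 Spp1 UMIs at P11, so most of the Spp1 level there came from 1 cell. Lining-like cells at P56 held 66.8 CPM of Enpp1 and 690 of Spp1, above tendon fibroblast-like cells of that age but with overlapping intervals for Enpp1, and 1207 of Mgp. Within them cluster 27, led by Dmkn and Cytl1, held 122 CPM of Enpp1, 145 of Ank, 124 of Nt5e, 6126 of Mgp and 4593 of Spp1, with 4 Alpl UMIs. In that cluster 10 of 125 cells held 74.7% of the Spp1 UMIs and 63.8% of the Mgp UMIs. In the whole lining-like class 10 of 511 cells held 74.3% of Spp1 and 56.5% of Mgp, so few cells carry these levels. Over all mesenchymal-like cells 3 of 5 passed from P11 to P18 (18.3% of all genes), 3 of 5 from P18 to P56 (24.6%) and 2 of 5 from P11 to P56 (18.5%), while the makeup of those cells differed too. Enpp1 was at 1.46, 0.333 and 7.65 UMIs per Alpl UMI there, and the chondrocyte-like and mineralising-like cells, which held most Alpl UMIs at P11 and P18, numbered 0 and 2 at P56. Together 20 of 55 member-by-age differences passed, where 4.37% to 24.6% of all genes did by comparison. The sums of all mesenchymal-like cells reuse the cells of the single classes, so the 55 differences are not independent.

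The scale bears on the smaller values. The median gene was shifted by up to 0.25 upward and 0.29 downward on the log2 scale in these comparisons, and TMM scaling of the sums would move a comparison by between -0.29 and 0.29. In the 14 comparisons within or between single classes, 7 of 81 values for the members and Alpl then change sign: Nt5e in tendon fibroblast-like cells from P11 to P18, Ank from tendon fibroblast-like to chondrocyte-like cells at P18, Nt5e from chondrocyte-like to mineralising-like cells at P18, and Enpp1, Mgp and Ank in connective-tissue fibroblast-like cells, Ank in both comparisons with P56.

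The members also differed in how evenly cells shared their UMIs. In tendon fibroblast-like cells at P18, 7771 Spp1 UMIs came from 99 of 353 cells, 1 cell held 1910 of them (24.6%) and the 10 highest held 77.9%. At P11, 1 of 847 cells held 635 of 1168 Spp1 UMIs (54.4%), and at P56 the 10 highest of 1874 cells held 72.5%. Alpl was as uneven, with 74.2% of its 66 UMIs at P18 and 74.8% of its 139 UMIs at P56 in 10 cells. A few cells therefore held most of the UMIs behind the Spp1 and Alpl levels of the tendon class.

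Enpp1, Ank, Nt5e and Mgp were spread over many cells of the tendon class. Enpp1 UMIs were seen in 511, 211 and 487 cells from P11 to P56, and the 10 highest cells held 7.83%, 15.9% and 7.57% of them. Mgp was seen in 818, 336 and 1815 cells, with 11.9%, 14.8% and 7.59% in the top 10. In mineralising-like cells Spp1 was present in 102 of 104 and 293 of 296 cells, and Alpl in 78 and 240. There the 10 highest cells held 34.2% and 21.4% of Spp1 but 63.0% and 25.5% of Mgp at P11 and P18.

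**Figure D4:**
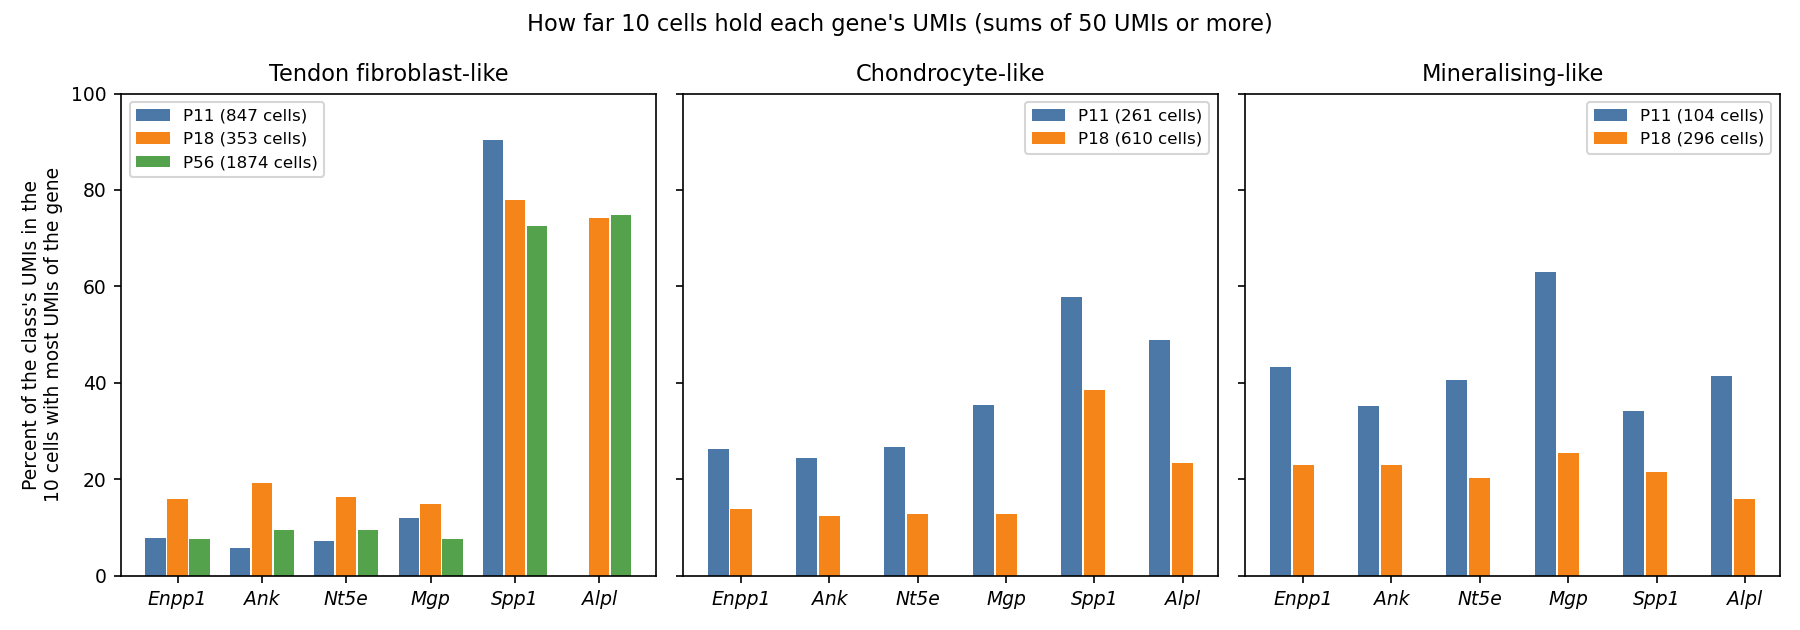
Percent of a gene's UMIs held by the 10 cells with the most, in tendon fibroblast-like, chondrocyte-like and mineralising-like cells, by library, for sums of at least 50 UMIs. In tendon fibroblast-like cells Spp1 and Alpl stand above 70% where they are plotted, while Enpp1, Ank, Nt5e and Mgp are at 19.1% or below.

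Shares of cells with a UMI were compared after each cell was thinned to 2000 UMIs, and cells with fewer were left out. In mineralising-like cells the thinned share with Alpl was 47.1% at P11 and 64.1% at P18 (75.0% and 81.1% unthinned, median depths 14406 and 9518 UMIs), with Spp1 94.2% and 98.3%, with Enpp1 6.73% and 9.66%, with Ank 13.5% and 21.7% and with Nt5e 24% and 29.3%. The share of tendon fibroblast-like cells with Alpl was 0.24%, 2.34% and 0.985% from P11 to P56, with Enpp1 16.3%, 19.9% and 9.90% and with Ank 25.7%, 31.3% and 17.3%. Granulocyte-like cells at P18 (median depth 5064 UMIs) gave 3.35% for Spp1, 3.84% for Mgp and 0 of 807 for Enpp1, Ank and Alpl, but 9.67% for Nt5e, about the share of tendon fibroblast-like cells at P56 (9.46%). B cell-like cells at P18 gave 2.03% for Spp1, 0.290% for Nt5e and 1.81% for Alpl. The Alpl UMIs of B cell-like cells at P18 were uneven over their clusters. The 675 and 220 cells of clusters 3 and 21 held 135 and 100, and the 333 cells of cluster 16 held 3. These clusters also differed in depth, with medians over all libraries of 8370, 14569 and 2687 UMIs. What part of these Alpl UMIs is background was not tested.

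Within a class, cells with Alpl were compared with cells without it, at the same thinned depth. Chondrocyte-like cells with Alpl had Spp1 in 56.7% at P11 and 59.3% at P18 (48.2 to 69.8), and those without in 23.5% and 24% (20.4 to 28.0). These 2 sets of cells hold cluster 9 and cluster 11 cells, which differ in both genes. In mineralising-like cells at P18 Mgp was seen in 60.8% (53.3 to 67.8) of cells with Alpl and 76.9% (67.6 to 84.6) of cells without. Cells are not replicates, so these shares describe 1 library each.

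The members' nearest genes were found over 26 class-by-library sums and 13713 genes, by Pearson's correlation of log2(CPM + 1). Sums of 1 library share depth and free RNA, so the values are descriptions with no p. For Enpp1 the 3 highest were Hectd2 (0.930), Bfsp1 (0.920) and Azin2 (0.918), and Ank stood at 0.869. For Ank they were P4ha1 (0.934), which hydroxylates collagen prolines, Fgfr1 (0.920) and Dnajc25 (0.916). Mgp was nearest to Ecm2, Boc and Igfbp7 (0.934 each), Spp1 to Ibsp (0.901), Chad (0.885) and Clec3a (0.865), and Nt5e to 1500015O10Rik (0.834), Crispld1 (0.823) and Wif1 (0.819). Alpl was nearest to Tmie (0.838), Spon1 (0.833) and Stc2 (0.829), and its values with the members were 0.657 for Spp1, 0.474 for Mgp, 0.415 for Nt5e, 0.370 for Enpp1 and 0.318 for Ank.

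Other genes of mineralisation were read from lists chosen alongside the members, from tendon fibroblast-like to mineralising-like cells. Of 16 mineralisation promoters, 5 of 9 tested were at least 2-fold higher and 0 lower at P11 (8.65% and 14.5% of all genes), with a list median of 2.19 against -0.14 for all genes, and at P18 6 of 13 were higher and 4 lower (7.84% and 13% of all genes), at 0.91 against -0.21. Of the 16, 10 had been used to name the mineralising-like class, and the list includes Alpl itself, which is among the higher genes at both ages. The 4 lower at P18 were Mmp13, Bglap, Bglap2 and Mepe, and in tendon fibroblast-like cells at that age 1 cell held 2891 of 4094 Bglap UMIs. Of 15 neighbours in purine and pyrophosphate handling, 2 of 5 were higher and 1 lower at each age (8.65% and 14.5% of all genes at P11, 7.84% and 13% at P18). Those higher were Slc29a1 and Ppa1 at P11, and Ppa1 and Enpp2 at P18. Ppa1, a soluble pyrophosphatase inside the cell, was at 55.0 CPM in tendon fibroblast-like and 229 in mineralising-like cells at P18, and Entpd2, which cleaves ATP, was at 82.9 and 4.75.

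Of 13 other inhibitors of mineralisation or of BMP signalling, 3 of 6 were higher at each age (8.65% of all genes at P11 and 7.84% at P18), with 2 lower at P11 and 1 at P18 (14.5% and 13% of all genes). Dkk1, a Wnt antagonist, was at 2.06 CPM in tendon fibroblast-like and 327 in mineralising-like cells at P18, Stc2 at 2.94 and 93.3, and Tnfrsf11b, osteoprotegerin, at 63.5 and 262, while Dkk3 was at 172 and 20.0. Of 8 receptors of osteopontin, 3 of 6 were lower and 0 higher at each age, against the same shares of all genes, with Cd44 at 64.5 and 5.16 CPM at P11 and 45.0 and 5.77 at P18. Of 5 genes of gamma-carboxylation, the modification Mgp needs, 1 of 5 was lower at P11 (Gas6, itself a substrate) and 2 of 5 at P18 (Gas6 and Bglap), against 14.5% and 13% of all genes.

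Along the Gli1-lineage plates no member's slope with age passed the test, nor did that of Alpl. Between 86 and 96 wells were kept per plate, with 235722 to 506912 counts. Enpp1 counts, in order of age from P7 to P42, were 73, 43, 22, 26, 32, 32 and 13, and Ank counts 47, 22, 43, 43, 41, 58 and 52. In CPM Enpp1 was 162, 123, 43.4, 67.2, 103, 136 and 41.2, with no single direction, and Ank was lowest at P11 (62.7) and highest at P28 (246). Alpl counts were 2, 3, 26, 15, 13, 18 and 36, and so 4.45 CPM at P7 and 114 at P42, in no more than 16 wells of any plate.

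The matrix inhibitors did not follow 1 course. Mgp counts were 748, 1242, 2337, 1939, 859, 717 and 1954, from 1663 CPM at P7 to 6187 at P42 with a dip at P21 and P28. Spp1 counts were 139, 104, 201, 199, 1036, 786 and 51, and P21 and P28 stood apart, at 3343 and 3334 CPM against 161 to 515 on the other 5 plates. At P28 1 well held 474 of the 786 counts, and at P21 402 of 1036. On the P21 plate 45 wells of a cluster named mineralising-like held 914 of the Spp1 counts and all 13 Alpl counts. The leading genes of that cluster were Bglap3, Ankrd23, Bglap, Bglap2, Myot, Mmp13, Tnnt3, Cox8b, Mpo and Smtnl1. Only Bglap, Bglap2 and Mmp13 among them are mineralising markers of the lists used here. Tnnt3 is a muscle marker and Mpo a granulocyte marker of those lists, and Bglap3, Ankrd23, Myot, Cox8b and Smtnl1 are in none of them. The name therefore rests on only part of these genes, and the cluster may hold wells of more than 1 kind. The P21 plate also held 2206 counts of 8 muscle markers, in a range of 2 to 2649 over the plates, and whether this bears on its Spp1 was not tested. Nt5e counts stayed between 14 and 30.

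By edgeR's quasi-likelihood test of a slope on log2 age over the 7 plates, with Benjamini-Hochberg adjustment over 4390 genes, 0 of 5 members tested passed, Abcc6 with 0 counts being untested (0.0% of all genes passed; 427 genes, 9.73%, had an unadjusted p under 0.05). Slopes per doubling of age were -0.53 (SE 0.27, adjusted p = 0.573) for Enpp1, 0.42 (0.23, 0.587) for Ank, 0.39 (0.29, 0.716) for Mgp, 1.27 (0.71, 0.611) for Spp1 and 0.09 (0.26, 0.946) for Nt5e. Alpl had a slope of 1.40 (SE 0.32, unadjusted p = 0.00101, adjusted p = 0.296), and DESeq2 gave it an adjusted p of 0.0175. Of the lists, 7 mineralisation promoters were tested and 0 passed, with 4 at an unadjusted p under 0.05, all upward and Alpl among them.

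**Figure D5:**
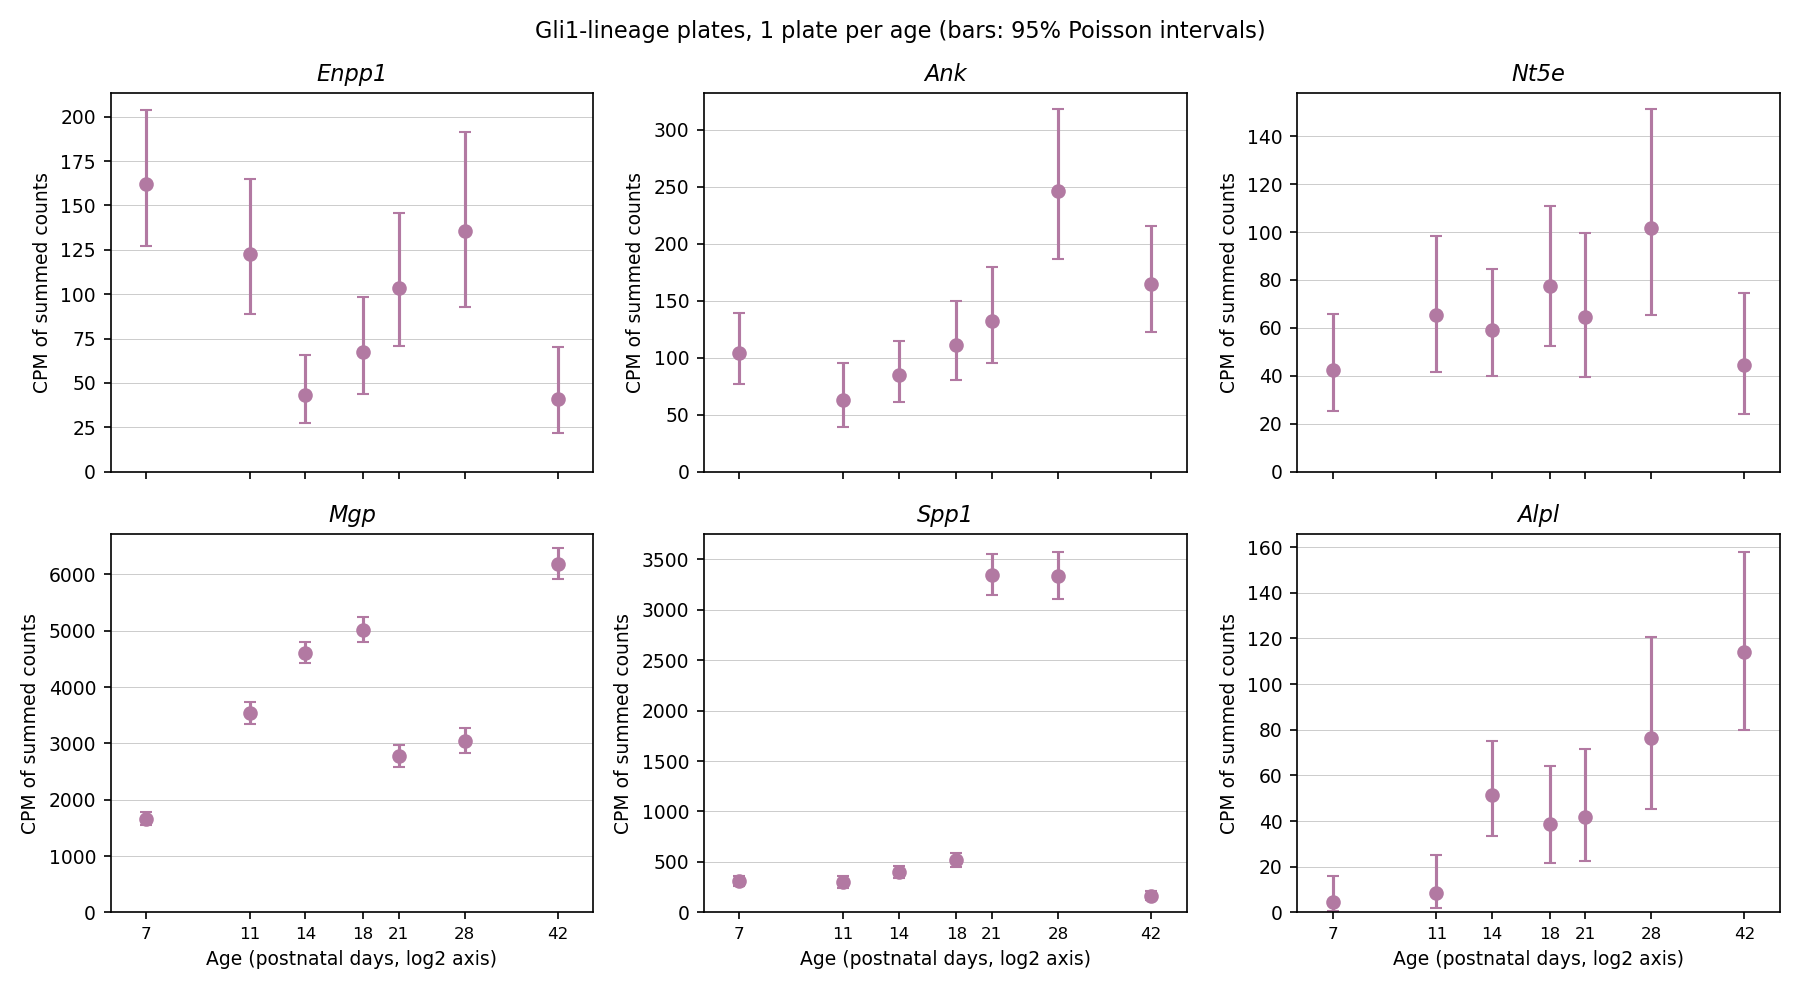
Levels of Enpp1, Ank, Nt5e, Mgp, Spp1 and Alpl (CPM of summed counts) on the 7 Gli1-lineage plates against age in postnatal days (log2 axis), 1 plate per age, with 95% Poisson intervals. Alpl is lowest at P7 and P11 and highest at P42, Enpp1 is highest at P7, and Spp1 stands apart at P21 and P28.

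The balance against Alpl was then taken plate by plate. Enpp1 counts per Alpl count were 36.5, 14.3, 0.846, 1.73, 2.46, 1.78 and 0.361 from P7 to P42, and Ank counts per Alpl count 23.5, 7.33, 1.65, 2.87, 3.15, 3.22 and 1.44. The 2 youngest plates, with 2 and 3 Alpl counts, lay above all others for both genes. Against log2 age, exact two-sided permutation over the orders of the 7 ages, adjusted over 5 members, gave for Enpp1 Spearman's rho of -0.68 (p = 0.110, adjusted 0.174) and Pearson's r of -0.85 (adjusted 0.0281). For Ank rho was -0.64 (adjusted 0.174 by exact permutation) and r -0.80 (adjusted 0.0370). Without P7 and P42, the ages farthest from the median, r was -0.48 for Enpp1 and -0.27 for Ank, so these relations rest on those plates.

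Without the outer plates the coefficients of Mgp stayed similar and those of Nt5e were weaker. No p was computed for the plates left, which include P11 with its 3 Alpl counts. On all 7 plates the rank test of Mgp did not pass 0.05 after adjustment. Mgp counts per Alpl count were 374, 414, 89.9, 129, 66.1, 39.8 and 54.3, with rho -0.89 (p = 0.0123, adjusted 0.0615 by exact permutation), r -0.87 (adjusted 0.0281) and, without P7 and P42, r and rho of -0.90. Nt5e had rho -0.79 (p = 0.0480, adjusted 0.120 by exact permutation), r -0.90 (adjusted 0.0281) and, without those plates, r -0.67 and rho -0.4. Spp1 had rho -0.29 (p = 0.556 by exact permutation) and r -0.53 (adjusted 0.225). All 5 share the Alpl counts, so they are not independent. The tables of P11, P21, P28 and P42 write their whole numbers with a decimal point and those of P7, P14 and P18 without. The rho of values centred within these layouts was -0.83 for Enpp1, -0.79 for Ank, -0.87 for Mgp, -0.79 for Nt5e and -0.46 for Spp1.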

How the data were processed

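Droplet matrices hold whole-number UMI counts per gene and barcode as the authors deposited them, written by software version 3.1.0 (P11 and P18) and 3.0.2 (P56), per the file headers. Plate tables hold counts per gene and well as deposited, and whether these were collapsed by molecular identifier is not given in the sources used here, nor is the aligner. The genome build was mm10, per the submitters' processing notes. Pooled 3'-end libraries were made, 1 per age, so there are no replicates.

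Filters kept barcodes that had 500 or more genes, with mitochondrial counts no higher than 10%. Doublets were removed by score, at 0.8% per 1000 barcodes (70, 233 and 211 at P11, P18 and P56), because the caller's own threshold marked 0.0339%, 1.04% and 0.0974%. The 3 droplet libraries were clustered together with scanpy 1.11.5 and leidenalg 0.10.2 (2000 variable genes, 30 components, 15 neighbours, resolution 1), without the members and Alpl. A cluster was named when at least 3 markers of a class passed, and 990 P18 cells stayed unnamed. Counts were summed per library and class and scaled to CPM; levels have exact Poisson intervals, ratios and shares exact binomial (Clopper-Pearson) ones, at 95%. UMI and read counts share amplification, so intervals and floors (3 counts) cover counting error only.

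Plate counts were summed over kept wells and tested with edgeR 4.0.16 (quasi-likelihood, TMM, a minimum of 10 counts in 4 or more plates, Benjamini-Hochberg, threshold 0.05) on log2 age; DESeq2 1.42.0 was an alternative. With pooled animals and 1 plate per age, p-values measure only the spread of plates about a trend. On simulated counts with 200 of 4390 genes given a slope of 1.5, the test recovered 179 (89.5%) with 4 false calls. The simulation gave every gene the same dispersion and the plates no difference in makeup. The recovered share is therefore no measure of how often such a slope would pass on the real plates. The plate balance used log2 of the ratio of counts with 0.5 added to each.

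The members, the 5 other lists and the named genes were chosen with earlier results of these data known. All members and Alpl are named. Of the lists, genes were named from those highest in mineralising-like cells, those with the largest folds against tendon fibroblast-like cells and those past the threshold on the plates, and the 3 nearest genes are given per member with at least 100 UMIs. Where a count was 5 or fewer, its genes were named after their values were seen. The alternatives tried were other filters, scalings, clusterings, thresholds, doublets kept and leaving out each plate.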

Additional observations from a re-analysis of the deposited data

Results flagged for a closer look

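Enpp1 differed in direction between the assays over the ages they share. From P11 to P18 its log2 difference was -0.87 on the Gli1-lineage plates (43 and 26 counts, interval -1.63 to -0.13) and 0.43 in all mesenchymal-like whole-enthesis cells (1902 and 1223 UMIs, interval 0.33 to 0.54). No test was made of that gap between assays. The P11 plate table is written with a decimal point and the P18 table without, and the part of that in the result was not tested. Ank, Mgp, Spp1, Nt5e and Alpl had the same sign in both assays. The makeup of the cells differed by age too: connective-tissue fibroblast-like cells were 1002 of 2256 mesenchymal-like droplet cells at P11 and 194 of 1458 at P18. In tendon fibroblast-like wells Enpp1 had 16 counts (136 CPM) at P11 and 17 (135 CPM) at P18, against 79.8 and 116 CPM in tendon fibroblast-like droplet cells. The part of makeup in the result was not tested.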

How the results depend on the processing

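No paired analysis was possible because the labels number no replicates and every age has a single library. The 3 alternatives that redefine the tendon class were chosen after seeing the data, and gave 18 and 19 member-by-age differences past 2-fold of 55, and 11 and 9 member-by-class ones of 30, with cluster 6 alone and without cluster 10. Without cluster 6, where P18 drops out of the tendon comparisons, they gave 16 of 45 and 7 of 20. In the main setting 4.37% to 24.6% of all genes passed 2-fold by comparison between ages, and 12% to 31.5% between classes. Shares of all genes under the alternatives are not given here, so the counts under them are descriptions only. The count between ages was 20, and 9 at 4-fold. The count between classes was 9, but 17 at clustering resolution 0.5, 19 with each library clustered alone (both of 35) and 14 with each cell placed by its marker score. The cause was not tested.

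The Spp1 difference from P18 to P56 in tendon fibroblast-like cells, -2.06, reversed to 0.68 with stricter cell filters, 3.88 at resolution 0.5, 0.61 with libraries clustered alone and 3.01 in cluster 6 alone, where Enpp1 was at 0.20 and Mgp at -0.73. In connective-tissue fibroblast-like cells Nt5e from P18 to P56 became 0.0077 with stricter filters, and Spp1 became 8.89 (P11 to P18) and 0.47 (P11 to P56) with libraries clustered alone and 1.44 (P11 to P56) by marker score. For these too the cause was not tested. Of 1078 recomputed log2 differences 592 moved by less than the counting interval and 476 by more. Of 496 log2 ratios to Alpl 322 stayed within it, 174 moved by more and 0 reversed.

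On the plates 0 genes passed, against 109 by DESeq2 and 307 with no filter on counts. Alpl passed in those 2 fits (adjusted p = 0.0175 and 0.00491; 0.129 to 0.741 in the other edgeR fits). Leaving out each plate gave 0 genes and 0 members. The Nt5e slope on the Gli1-lineage plates reversed to -0.0019 on linear age and ranged from -0.118 to 0.437 with each plate left out. Without each plate rho of the balance ranged from -0.83 to -0.49 for Enpp1, -0.77 to -0.43 for Ank, -0.89 to -0.83 for Mgp, -1 to -0.66 for Nt5e and -0.6 to 0.14 for Spp1. The balance of Nt5e passed the threshold without P14 and that of Spp1 reversed without P42. Every kept well lay in a cluster given a mesenchymal-like name, so restricting the fit to such wells left none out and is no check on other cell types. The P21 and P42 plates held 2206 and 2649 counts of the 8 muscle markers. The 2 to 36 Alpl counts per plate limit these ratios.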
